A study of Mus musculus with 16 samples.

Results

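Blood stem and progenitor cells are marked by a small set of surface receptors and transcription factors, and 10 genes named for such cells were followed here in libraries of cells described as bone marrow neutrophils. The 10 genes were taken by symbol, with no cut-off on their values, out of 49585 gene identifiers in the count tables. They came from a fixed list of names, chosen with earlier results of these data known. They were Cd34 and Kit (surface proteins), Gata2, Meis1, Hoxa9, Mecom, Sox4 and Lmo2 (transcription factors and a cofactor), Vav1 (signalling) and Erg28. All 10 had counts in every library, and all 10 passed the filter on low counts in each comparison.

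The cells came from bones of C57BL/6 mice of 8 to 12 weeks and were described as neutrophils isolated by flow cytometry. The series held 16 libraries, 4 in each of 4 groups. P2KO mice were labelled Vav:cre-PHD2f/f, that is, deficient for the oxygen sensor PHD2 (Egln1), and P2H2KO mice Vav:cre-PHD2/HIF2ff/ff, deficient for PHD2 and HIF2 (Epas1) together. P2WT and P2H2WT were the wild type controls of each line, and the labels do not say whether these carried the Cre or the floxed alleles. Vav:cre acts through regulatory elements of Vav1 from early blood-forming cells onwards, so stem cells and all blood lineages, and not neutrophils alone, are targeted in such mice. PHD2 marks the HIF proteins for degradation when oxygen is present. The title of the series asks about the motility of neutrophils, so the comparisons of KO with WT ask here whether progenitor transcripts differ when PHD2, or PHD2 and HIF2, are labelled as missing.

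In textbook haematopoiesis, KIT and CD34 lie on the surface of progenitors, and GATA2, MEIS1, HOXA9 and MECOM keep the stem cell programme running. LMO2 bridges GATA and TAL1 proteins on DNA, first in stem cells and later in red cell precursors. Most of these genes are not limited to stem cells: mast cells and basophils keep GATA2, endothelium carries CD34, and early B cells express SOX4.

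Library totals ran from 23450746 to 28601284 counts, and levels are given as CPM, counts scaled to the TMM-adjusted library total. The labels do not say whether the libraries of a group came from separate mice, so the p values measure only the spread between these samples, which may be technical. Egln1 was at 43.2 to 58.3 CPM in P2KO and 45.9 to 51.3 CPM in P2WT, and at 49.1 to 58.8 CPM in P2H2KO and 47.8 to 54.5 CPM in P2H2WT. Epas1 was at 3.42 to 8.38 CPM in P2H2KO and 2.55 to 4.97 CPM in P2H2WT. Counts over whole genes do not show a deleted exon, so these genes did not check the labels, and KO stands for the libraries labelled so. Neutrophil markers were abundant, with S100a9 at 7750 to 21400 CPM and Ly6g at 84.2 to 269 CPM. Markers of other cells were also present in all 16 libraries. The 7 erythroid genes summed to 9020 to 19000 CPM, the 8 B progenitor genes to 140 to 529 CPM, the 5 monocyte genes to 1300 to 3890 CPM and the 5 cell cycle genes to 2090 to 4490 CPM. In such bulk samples, fewer cells of a type and less RNA per cell cannot be told apart.

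Lmo2 and Vav1 stood far above the other genes in these libraries. Levels were compared between genes as CPM per kilobase of exon, and over the 16 libraries Lmo2 was at 126 ± 16.9 CPM per kb (SD, n = 16) and Vav1 at 50.5 ± 5.51 CPM per kb. The ranges of the pair did not overlap, and Vav1 in turn lay above Sox4, at 11.6 ± 3.43 CPM per kb, in every library. Kit at 6.86 ± 0.707 and Erg28 at 6.32 ± 0.350 CPM per kb were close, with Kit the higher in 13 of 16 libraries. Cd34 followed at 4.12 ± 0.832 CPM per kb and Gata2 at 3.29 ± 0.763 CPM per kb, and Cd34 was the higher in 11 of 16, so the order of these neighbours lay within their spread. Meis1 was at 0.350 ± 0.0575 and Hoxa9 at 0.259 ± 0.0650 CPM per kb, again with overlapping ranges. Mecom, the transcription factor EVI1 of long-lived stem cells, was the lowest at 0.0359 ± 0.0147 CPM per kb, below Hoxa9 in 16 of 16 libraries. The 2 genes at the top, Lmo2 and Vav1, are also used by mature blood lineages, and the 3 at the bottom, Meis1, Hoxa9 and Mecom, are known from the most immature cells.

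**Figure D1:**
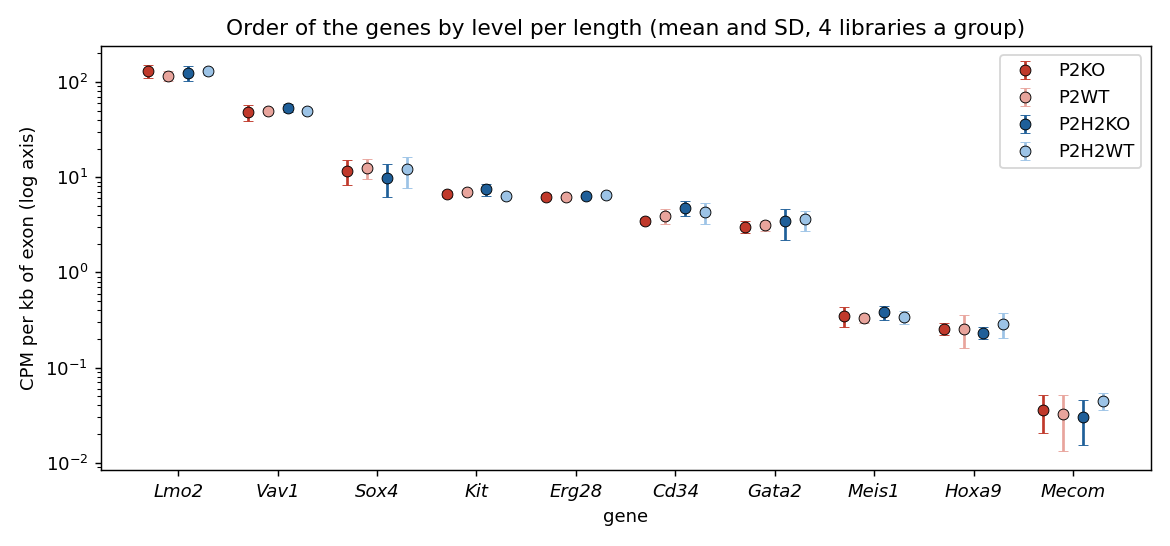
Level of the 10 genes as CPM per kilobase of exon on a log axis, mean and SD of the 4 libraries of each group. The 4 groups lie close together for each gene, while Lmo2 (126 CPM per kb) and Mecom (0.0359 CPM per kb) mark the ends of the order.

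None of the 10 genes passed the test in PHD2-deficient against control libraries. Of 13734 genes tested in P2KO against P2WT, 6 (0.0437%) were called, that is, edgeR's quasi-likelihood test gave them a Benjamini-Hochberg adjusted p below 0.05, and 0 of the 10 were among them. At an unadjusted p under 0.05 there were 0 of the 10, against 3.49% of all genes, and DESeq2 called 0. Their median log2 fold change was -0.009, with 5 positive and 5 negative, against 0.02 for the whole table. In 0 of the 10 genes did the groups lie apart, against 2.25% of genes tested.

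None passed in the double-deficient line either. In P2H2KO against P2H2WT, 10 of 13435 genes (0.0744%) were called by edgeR and 0 of the 10, with 0 of the 10 at an unadjusted p under 0.05 (2.63% of all genes) and 0 by DESeq2. The median log2 fold change of the 10 was -0.044, with 4 positive and 6 negative, against 0.001 over all genes. Groups lay apart in 0 of the 10 and in 1.71% of genes tested. Averaged over both lines, which uses all 16 libraries, deficient against control gave 24 calls in 14080 genes (0.17%), with 0 of the 10 by edgeR and by DESeq2. At an unadjusted p under 0.05 there were 0 of the 10 and 3.72% of all genes. Without P2H2WT replicate 13 the 10 calls of the P2H2 line became 6, and without P2WT replicate 4 the 24 became 15. This average shares its libraries with both single comparisons.

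**Figure D2:**
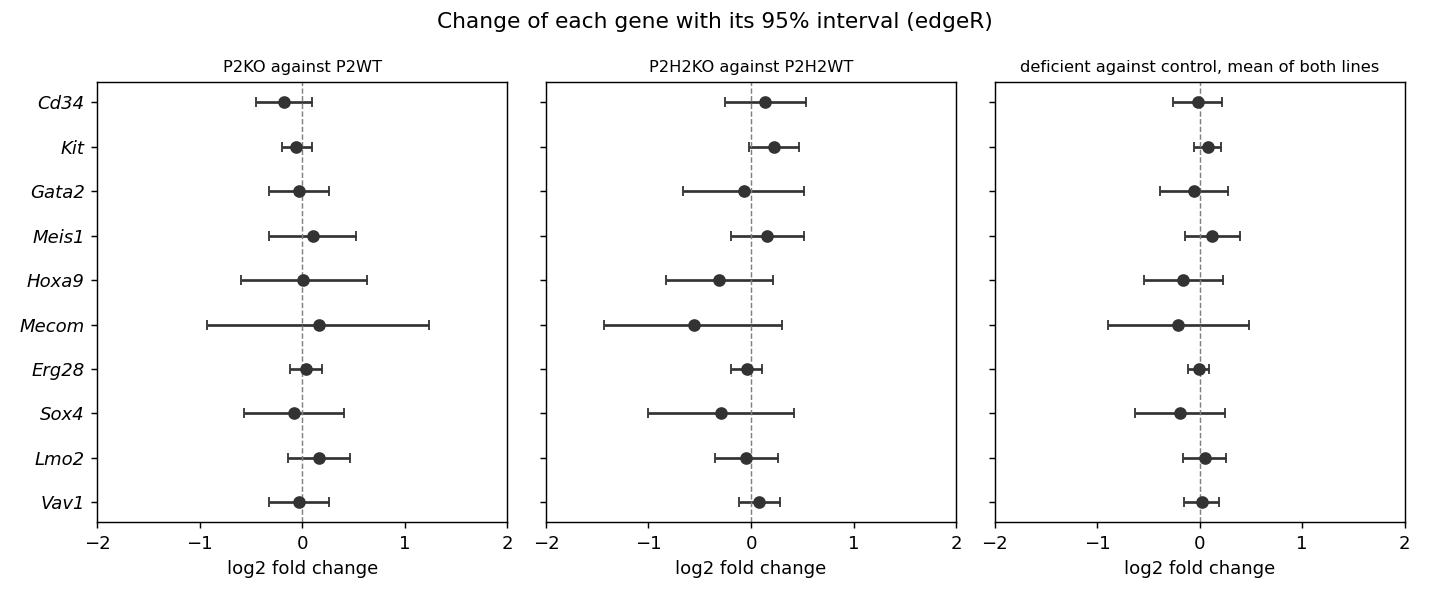
Log2 fold change of each gene (points) with its 95% interval from edgeR, in P2KO against P2WT, in P2H2KO against P2H2WT and averaged over both lines. All intervals include 0, and those of Erg28 and Kit are narrow, whereas that of Mecom spans from -1.43 to 0.30 in the P2H2 line.

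The surface genes are the usual handles for sorting progenitors. Kit (chromosome 5, 75574916 to 75656722, plus strand; coordinates are those of GENCODE M21 on GRCm38) encodes the receptor for stem cell factor. Its 4 libraries were at 63.5, 59.0, 54.2 and 60.6 CPM in P2KO and at 61.0, 59.0, 65.3 and 63.8 CPM in P2WT. Kit reached 77.7, 63.3, 54.2 and 70.0 CPM in P2H2KO and 58.7, 59.9, 54.3 and 54.3 CPM in P2H2WT. The groups overlapped in both lines, although 3 of 4 P2H2KO libraries lay above every P2H2WT library. The log2 fold change was -0.06 (95% interval -0.20 to 0.09) in the P2 line and 0.22 (-0.02 to 0.47) in the P2H2 line. Kit was the only 1 of the 10 with an unadjusted p under 0.05 for the difference of these effects, at -0.29 (SE 0.128, unadjusted p = 0.036, edgeR adjusted p = 0.999). For that contrast 212 of 14080 genes (1.51%) had such a p, and 0 (0.0%) passed after adjustment by edgeR or by DESeq2.

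Cd34 (chromosome 1, 194938819 to 194961279, plus strand) encodes a sialomucin of progenitors and endothelium. It was at 24.0, 27.7, 25.0 and 24.3 CPM in P2KO and at 28.3, 27.4, 23.7 and 36.1 CPM in P2WT. In the other line it was at 28.6, 31.5, 42.2 and 36.1 CPM in P2H2KO and at 28.8, 25.7, 42.4 and 28.3 CPM in P2H2WT. In each line the groups overlapped, and 1 control library was far above the other 3, P2WT replicate 7 and P2H2WT replicate 16. The log2 fold changes were -0.18 (95% interval -0.45 to 0.09) and 0.14 (-0.25 to 0.54), so a change beyond 1.45-fold upwards lay outside both intervals.

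Among the transcription factors, Gata2 (chromosome 6, 88193891 to 88207032, plus strand) is a zinc finger protein of stem cells, mast cells and basophils. It was at 13.1, 15.9, 18.4 and 18 CPM in P2KO and at 19.2, 17.7, 15.7 and 14.7 CPM in P2WT. P2H2KO had 21.2, 26.7, 14 and 12 CPM and P2H2WT 17.2, 24.6, 14.3 and 21.6 CPM. Its spread was thus wider in the P2H2 line, where P2H2KO held both the highest and the lowest library of the series. The log2 fold changes were -0.03 (-0.33 to 0.26) and -0.07 (-0.66 to 0.52).

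Meis1 and Hoxa9 encode homeodomain partners that act together on DNA in early progenitors. Meis1 (chromosome 11, 18879817 to 19018985, minus strand) had 2.72 to 4.64 CPM in P2KO, 2.95 to 3.89 in P2WT, 3.46 to 4.92 in P2H2KO and 3.02 to 4.12 in P2H2WT, on 73 to 137 counts per library. Hoxa9 (chromosome 6, 52223100 to 52231089, minus strand) had 1.19 to 1.66, 0.889 to 2.06, 1.09 to 1.56 and 1.25 to 2.28 CPM in the same order of groups, on 22 to 59 counts. Both genes overlapped between genotypes in both lines. The log2 fold changes of Meis1 were 0.10 (-0.33 to 0.52) and 0.16 (-0.20 to 0.52), and those of Hoxa9 0.01 (-0.60 to 0.63) and -0.31 (-0.83 to 0.21).

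Mecom (chromosome 3, 29951296 to 30548008, minus strand) was close to the limit of detection. Its counts were 9, 19, 6 and 15 in P2KO, 17, 16, 4 and 6 in P2WT, 13, 12, 4 and 7 in P2H2KO and 11, 14, 16 and 16 in P2H2WT. The log2 fold changes were 0.16 (-0.93 to 1.24) and -0.56 (-1.43 to 0.30), so at this depth the interval in the P2 line still held any value from 0.526-fold to 2.37-fold.

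Sox4 (chromosome 13, 28948919 to 28953713, minus strand), an HMG box factor of progenitors and early lymphocytes, varied most among the genes above 10 CPM, with a coefficient of variation of 29.7% over the 16 libraries. It was at 43.0, 54.5, 47.3 and 79.6 CPM in P2KO and at 46.3, 79.7, 53.1 and 59.9 CPM in P2WT. P2H2KO had 47.0, 70.7, 27.3 and 45.2 CPM and P2H2WT 68.2, 82.6, 43.6 and 38.1 CPM. High and low libraries occurred in every group, and the log2 fold changes were -0.08 (-0.57 to 0.41) and -0.29 (-1.0 to 0.42). Of its 4795 exonic bases, 2616 overlap Gm26735 on the other strand, and the strand setting of the counting is not given in the sources used here. Gm26735 itself had 0 to 9 counts per library.

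Lmo2 (chromosome 2, 103957986 to 103981878, plus strand), the LIM protein that joins TAL1 and GATA factors, was at 304, 317, 218 and 290 CPM in P2KO and at 234, 262, 297 and 224 CPM in P2WT. P2H2KO had 327, 290, 212 and 262 CPM and P2H2WT 282, 318, 264 and 262 CPM. The lowest library of each deficient group, P2KO replicate 6 and P2H2KO replicate 15, lay below every control of its line. The log2 fold changes were 0.16 (-0.14 to 0.46) and -0.05 (-0.35 to 0.26).

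Vav1 (chromosome 17, 57279100 to 57328031, plus strand) encodes a guanine nucleotide exchange factor of blood cells. It was at 172, 171, 228 and 146 CPM in P2KO and at 196, 189, 170 and 185 CPM in P2WT, and P2KO held both its highest and its lowest library of the series. P2H2KO had 176, 190, 221 and 196 CPM and P2H2WT 177, 171, 189 and 203 CPM. The log2 fold changes were -0.03 (-0.33 to 0.26) and 0.08 (-0.12 to 0.28), and the intervals for this gene, whose elements drive the Cre, ran from 0.798-fold to 1.2-fold in the P2 line.

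Erg28 (chromosome 12, 85815448 to 85824550, minus strand) is named like the blood factor ERG but encodes a protein of the endoplasmic reticulum tied to sterol synthesis, and it is no stem cell marker. It was the steadiest of the 10, at 23.7 to 30.1 CPM with a coefficient of variation of 5.54%. Its log2 fold changes were 0.04 (-0.12 to 0.19) and -0.04 (-0.20 to 0.11). The ETS factor gene Erg, from the wider list of stem and progenitor genes, averaged 28.2 ± 6.87 CPM in P2KO (SD, n = 4) and 28.6 ± 5.29 in P2WT, and 30.6 ± 4.61 in P2H2KO and 25.5 ± 4.86 in P2H2WT. Its log2 fold changes of -0.01 (SE 0.186) and 0.26 (SE 0.148) did not pass either (edgeR adjusted p = 1.0 in each).

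**Figure D3:**
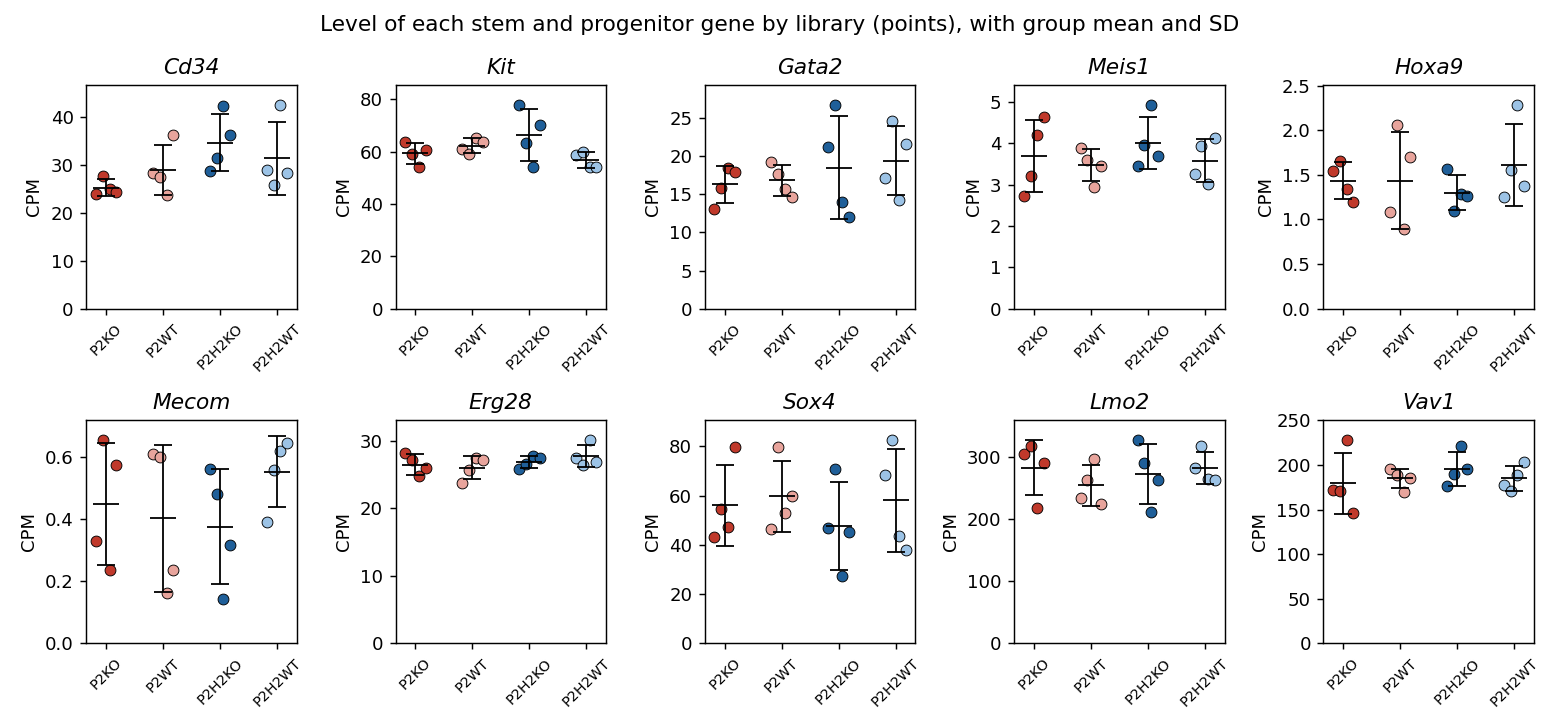
CPM of each of the 10 genes in every library (points, axes from 0), with the mean and SD of the 4 libraries of each group. Deficient and control libraries overlap in every panel, and Sox4 (27.3 to 82.6 CPM) spreads widely within groups while Erg28 stays between 23.7 and 30.1 CPM.

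Between the controls of the lines, none of the 10 passed either. In P2WT against P2H2WT, 32 of 14080 genes (0.227%) were called by edgeR, with 0 of the 10, and 0 of the 10 at an unadjusted p under 0.05 against 10% of all genes. Their median log2 fold change was -0.105, with 2 positive and 8 negative, against -0.006 for the whole table. DESeq2 also called 0 of the 10, and groups lay apart in 0 of the 10 against 7.77% of genes tested. The 32 calls rested on single libraries: the count was 0 without P2WT replicate 3, 4 or 7 or P2H2WT replicate 13, 1 without P2WT replicate 10 or P2H2WT replicate 16, and 182 without P2KO replicate 9, which enters only through the shared estimate of the spread. It was 12, 13 and 15 without P2KO replicate 5, P2H2KO replicate 12 and P2H2WT replicate 14. Line and count table cannot be told apart in this comparison.

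Promoter sequences of the RefSeq genes (GRCm38.p6) were examined for the letters bound by HIF, GATA and ETS factors, and 9 of the 10 genes matched. Windows were the 250 bases before each annotated start, read on both strands, and a gene counted if any of its windows held the motif. The hypoxia response element core ACGTG was found in 0 of 9 genes and in 18.5% of all 27025 genes with a window, and the core GCGTG in 5 of 9 (Kit, Gata2, Meis1, Erg28 and Sox4) against 30.9%. For Gata2 the GCGTG lay only in the window at 88198414 to 88198663, where all 250 bases were annotated exon. Its window at 88193641 to 88193890 held none. The window of Erg28 was also annotated exon over all 250 bases. The ETS core AGGAAG was in 5 of 9 (Cd34, Kit, Hoxa9, Sox4 and Vav1) against 32.3%, and the GATA core GATAA in 3 of 9 (Hoxa9, Mecom and Sox4) against 25.5%. ACGTG and GCGTG differ only in their first letter. Vav1 is shown because its elements drive the Cre, with the ETS core in capitals. Meis1 and Sox4 are shown as genes with a GCGTG core, in capitals, which Sox4 carries on the other strand and so reads CACGC; the sequences run 5′ to 3′ on the strand of the gene.
Vav1, chr17:57278850-57279099, plus strand: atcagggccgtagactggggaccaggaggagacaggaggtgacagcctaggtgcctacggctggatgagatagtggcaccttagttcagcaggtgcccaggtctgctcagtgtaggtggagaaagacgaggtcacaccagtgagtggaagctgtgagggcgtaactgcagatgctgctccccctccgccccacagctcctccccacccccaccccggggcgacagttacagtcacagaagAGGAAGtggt
Meis1, chr11:19018970-19019219, minus strand: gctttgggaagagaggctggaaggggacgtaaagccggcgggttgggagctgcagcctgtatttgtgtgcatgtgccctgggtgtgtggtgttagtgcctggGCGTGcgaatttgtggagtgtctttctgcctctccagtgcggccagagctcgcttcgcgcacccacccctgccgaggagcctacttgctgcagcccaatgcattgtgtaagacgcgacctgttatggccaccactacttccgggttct
Sox4, chr13:28953700-28953949, minus strand: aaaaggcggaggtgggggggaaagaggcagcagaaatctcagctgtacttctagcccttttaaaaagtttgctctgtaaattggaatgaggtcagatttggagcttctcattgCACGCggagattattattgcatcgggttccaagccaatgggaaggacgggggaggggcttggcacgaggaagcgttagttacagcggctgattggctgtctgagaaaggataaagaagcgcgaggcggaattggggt
These matches describe the letters only. The genes with a GCGTG core, like those without, showed no called change in either line.

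Several of the 10 genes moved from library to library together with markers of a cell type. Each of the 10 genes was set against 10 marker lists (mean log2 CPM of the list) over the 16 libraries. Of the 100 relations, 14 had a permutation p under 0.05 for Pearson's r after Benjamini-Hochberg adjustment, among them that of Gata2 with the mast cell and basophil list. CPM values are shares of a total, so the relations are not independent of each other. The part of other cell types in the levels of the 10 genes was not tested.

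Lmo2 followed the erythroid genes most closely. Its Pearson r with the 7 erythroid genes was 0.96 and Spearman's rho 0.94 (100000 permutations, p = 1e-05 for each, the smallest they can give; adjusted p = 0.0005). Without the 2 libraries farthest from the median r was 0.96, and it was 0.95 within the P2 line and 0.98 within the P2H2 line (n = 8 each). The erythroid list summed to 9020 to 16400 CPM in P2KO, 11500 to 15700 in P2WT, 9330 to 17400 in P2H2KO and 13400 to 19000 in P2H2WT, and 7 of 7 genes were detected in every library. With group means removed, Isg20 (r = 0.990) and Dhrs11 (0.989) were among the genes most like Lmo2 of 12079 compared. Lmo2 also followed the cell cycle list (r = 0.75, rho = 0.75, adjusted permutation p = 0.012 and 0.016), and r was 0.73 without the 2 farthest libraries, 0.98 in the P2 line and 0.89 in the P2H2 line. Without P2H2KO replicate 15 this relation missed the threshold (adjusted permutation p = 0.0502).

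Sox4 followed the B progenitor genes. Its r with the 8 B progenitor genes was 0.95 and rho 0.93 (permutation p = 1e-05 for each, the smallest they can give; adjusted p = 0.0005), with 0.91 without the 2 farthest libraries, 0.86 in the P2 line and 0.99 in the P2H2 line. The list summed to 228 to 529 CPM in P2KO, 265 to 518 in P2WT, 140 to 426 in P2H2KO and 241 to 509 in P2H2WT, and 8 of 8 genes were detected throughout. The genes most like Sox4 were Arntl (r = 0.985), Mzb1 (0.985) and Irf4 (0.984), of which Mzb1 and Irf4 are known from B cells and plasma cells. Sox4 ran against the monocyte list by Pearson's r (-0.71, adjusted permutation p = 0.0161) but not by rho (-0.62, adjusted p = 0.0807), with r of -0.54 without the 2 farthest libraries and -0.47 and -0.83 within the lines. It missed the threshold without P2KO replicate 9 or P2H2KO replicate 15.

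Gata2 went with the basophil genes. With group means removed, the 3 genes most like it over the 16 libraries were Mcpt8 (r = 0.960), Cpa3 (0.947) and Prss34 (0.940). They encode proteases of basophils and mast cells. All 3 belong to the mast cell and basophil list, so these values are not separate from it and span the gap given next. The level of the mast cell and basophil list left a gap between 11 libraries (mean log2 CPM 2.97 to 3.24) and 5 libraries (3.48 to 3.61), so no pooled coefficient with the list is given. Within the 11 lower libraries r was 0.31, and the 5 upper libraries, P2WT replicate 10, P2H2KO replicates 11 and 12 and P2H2WT replicates 14 and 18, also held the 5 highest Gata2 values. By line, r was 0.67 and 0.94, but each line had libraries on both sides of the gap. Within the 5 upper libraries r was 0.83. The list summed to 347 to 622 CPM in P2KO, 387 to 655 in P2WT, 522 to 612 in P2H2KO and 447 to 608 in P2H2WT. Hdc alone was at 165 to 403 CPM, so the sum weighs this gene more than the mean log2 level does. Of the 8 genes of the list, 7 were detected in every library, among them Cma1 at only 2 to 10 counts. Tpsb2, a tryptase of tissue mast cells, had 0 counts in 9 of 16. Gata2 ran against the promyelocyte granule list (r = -0.68, rho = -0.71, adjusted permutation p = 0.0279 and 0.029), with -0.63 without the 2 farthest libraries and -0.83 and -0.81 within the lines. It missed the threshold without P2H2KO replicate 15 or 17 or P2H2WT replicate 14, 16 or 18.

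Cd34 went with monocyte and promyelocyte genes. With the 5 monocyte genes r was 0.83 and rho 0.72 (adjusted permutation p = 0.0012 and 0.0226), with 0.66 without the 2 farthest libraries and 0.63 and 0.84 within the lines. The monocyte list summed to 1300 to 2300 CPM in P2KO, 1990 to 2650 in P2WT, 1850 to 3890 in P2H2KO and 1700 to 3450 in P2H2WT. With the promyelocyte granule list, which holds Mpo and Elane, r was 0.74 (adjusted permutation p = 0.0129) and rho 0.66 (adjusted p = 0.0505), with r of 0.57 without the 2 farthest and 0.50 and 0.89 within the lines, and it missed the threshold without P2H2WT replicate 16 (adjusted permutation p = 0.055). Against the cell cycle list r was -0.77 and rho -0.67 (adjusted permutation p = 0.00575 and 0.0456), with -0.63, -0.52 and -0.81 in the same order. The endothelial list separated the lines, so only values within lines are given, and r with Cd34 was -0.09 in the P2 line and 0.68 in the P2H2 line.

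Vav1 ran opposite to Lmo2. It followed the 11 neutrophil genes (r = 0.82, rho = 0.80, adjusted permutation p = 0.00183 and 0.0082), with 0.80 without the 2 farthest libraries and 0.89 and 0.66 within the lines. Against the erythroid list r was -0.84 and rho -0.84 (adjusted permutation p = 0.000667 and 0.00233), with -0.68, -0.86 and -0.97. The neutrophil list summed to 30800 to 72100 CPM in P2KO, 38900 to 60900 in P2WT, 42600 to 80800 in P2H2KO and 44700 to 68600 in P2H2WT. Vav1 also followed the monocyte list (r = 0.69, rho = 0.69, adjusted permutation p = 0.0284 and 0.0345), with r of 0.65 without the 2 farthest libraries and 0.61 and 0.89 within the lines. That relation missed the threshold without P2KO replicate 9, P2H2KO replicate 15 or P2H2WT replicate 18. Against the cell cycle list r was -0.77 and rho -0.85 (adjusted permutation p = 0.00575 and 0.00275), with -0.73, -0.84 and -0.76. With group means removed, Lmo2 and Vav1 correlated with r = -0.81, and the genes most like Vav1 were Fmnl1 (r = 0.972), Gm1966 (0.972) and Preb (0.971). Fmnl1 encodes a formin of blood cells.

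**Figure D4:**
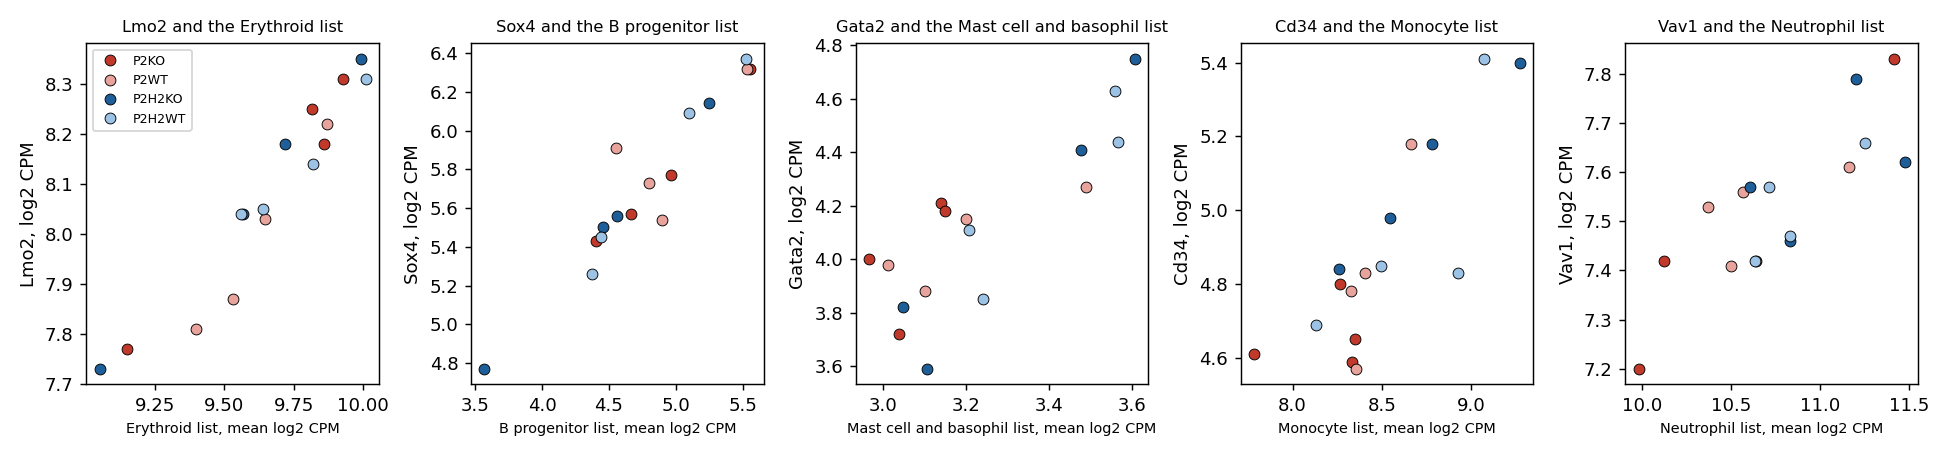
Log2 CPM of Lmo2, Sox4, Gata2, Cd34 and Vav1 (vertical) against the mean log2 CPM of a marker list (horizontal), with a point per library coloured by group. Over all 16 libraries the points rise with the list for Lmo2 (r = 0.96) and Sox4 (r = 0.95), and the gap in the basophil list is visible for Gata2. No slope was fitted by group.

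Erg28 followed the promyelocyte granule list (r = 0.69, rho = 0.77, adjusted permutation p = 0.0212 and 0.00983), with r of 0.56 without the 2 farthest libraries and 0.69 and 0.66 within the lines. It missed the threshold without P2KO replicate 6 or P2H2WT replicate 16. The list summed to 2300 to 4040 CPM over the libraries. For Kit, Meis1, Hoxa9 and Mecom no relation passed. Kit had its largest r with the erythroid list (r = 0.49, rho = 0.41, adjusted permutation p = 0.179 and 0.353), and Meis1 had its largest with the same list (r = -0.49, rho = -0.39, 0.179 and 0.373). Without the 2 farthest libraries these became 0.24 and -0.13. Within the P2 and P2H2 lines r was 0.52 and 0.51 for Kit and -0.41 and -0.61 for Meis1. With group means removed it was 0.80 for Kit, given as a description, and -0.49 for Meis1, and Kit and Lmo2 correlated with r = 0.75 in the same way. By rho, the largest relation of Meis1 was with the promyelocyte granule list (rho = -0.47, r = -0.42, adjusted permutation p = 0.274 and 0.291). There r was -0.71 without the 2 farthest libraries, -0.79 and -0.21 within the lines, and -0.61 with group means removed. Meis1 was most like Sema3g (r = 0.904), Dnmt3a (0.898) and Bcl9 (0.883), of which Dnmt3a encodes a DNA methyltransferase. Kit was most like Pgp, Usp39 and 6030468B19Rik (r = 0.956 to 0.936), and Cd34 most like Arl10, Mtmr2 and Amot (0.949 to 0.935). Hoxa9 was most like Ttc19, Ppp2r3d and Pomgnt1 (0.856 to 0.817) and Erg28 most like genes that included Prmt3 and Mtch2 (0.954 and 0.910). These likenesses were picked as the highest of 12079 genes over 16 libraries and are given as a description.

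**Figure D5:**
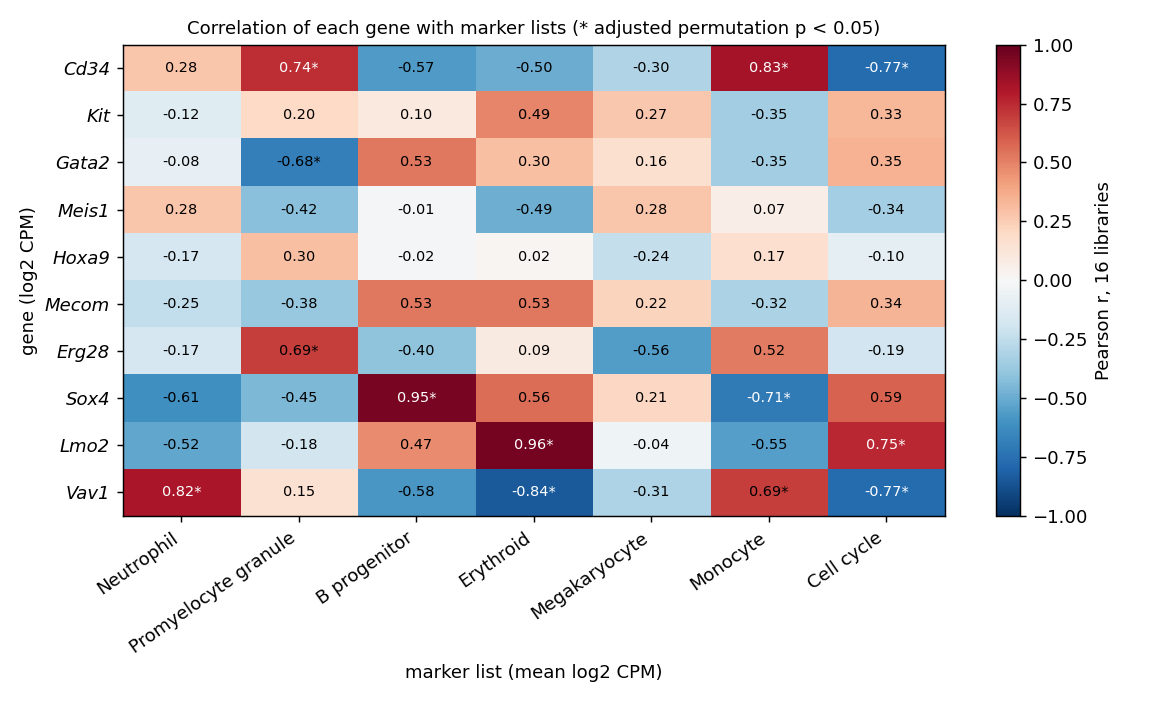
Pearson r over the 16 libraries between each of the 10 genes (rows) and the mean log2 CPM of each marker list (columns), with an asterisk for an adjusted permutation p under 0.05. Lmo2 with erythroid (0.96) and Sox4 with B progenitor genes (0.95) have the highest values, and the rows of Kit, Meis1, Hoxa9 and Mecom carry no asterisk; the basophil, endothelial and stroma lists are left out because their levels split the libraries.

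The wider list held 32 other stem and progenitor genes, among them Tal1, Runx1, Myb and Flt3. Of these, 30 were tested in the P2 line and 29 in the P2H2 line, and edgeR and DESeq2 called 0 in either. At an unadjusted p under 0.05 there were 1 of 30 and 3 of 29, against 3.49% and 2.63% of all genes. The median log2 fold change was 0.052 and 0.082, against 0.02 and 0.001 for all genes. Among P2 libraries the smallest p values belonged to Cd27 (log2 fold change -0.35, SE 0.152, unadjusted p = 0.0486), Prdm16 (0.68, SE 0.313) and Flt3 (-0.22, SE 0.104), all with an edgeR adjusted p of 1.0. In the P2H2 line they belonged to Tek (1.16, SE 0.358, unadjusted p = 0.00968), Prom1 (0.28, SE 0.104) and Esam (0.66, SE 0.285), again with an edgeR adjusted p of 1.0. For the difference of the effects, 0 of 32 passed by edgeR or DESeq2 and 0 had an unadjusted p under 0.05, and the smallest p belonged to Prdm16 (0.82, SE 0.42, unadjusted p = 0.0689), followed by Flt3 (-0.40) and Cd27 (-0.29). Averaged over the lines, 4 of 32 had an unadjusted p under 0.05, against 3.72% of all genes, the 3 smallest being those of Tek (0.81, SE 0.309), Esam (0.64, SE 0.271) and Cd27 (-0.21, SE 0.0958), and 0 passed by edgeR or DESeq2. Endothelial cells also express Tek and Esam. The endothelial list had 8 of 10 genes positive in the P2H2 line (median log2 fold change 0.476, 0 called), against 6791 of 13435 genes. It had 8 of 10 in the P2 line (0.359, 0 called), against 7936 of 13734, and 8 of 10 in the average (0.434, 0 called), against 7302 of 14080. It summed to 89.5 to 97.9 CPM in P2H2KO and 77.1 to 94.4 CPM in P2H2WT. In the P2 line it summed to 111 to 245 CPM in P2KO, the highest in replicate 9, and 120 to 146 CPM in P2WT. Pecam1 alone was at 36.3 to 60.7 CPM over the libraries, so the sums of the endothelial list weigh this gene more than the medians do. The part of this list in these values was not tested.

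Between the controls of the lines, the smallest p values of this list belonged to Tek, the angiopoietin receptor TIE2, and Esam, an adhesion molecule, both shared by stem cells and endothelium. Tek averaged 2.85 ± 0.277 CPM in P2WT (SD, n = 4) and 0.562 ± 0.128 CPM in P2H2WT, and edgeR gave a log2 fold change of 2.33 with an SE of 0.458 and an adjusted p of 0.0529. Esam was at 1.94 ± 0.337 and 0.699 ± 0.202 CPM (1.47, SE 0.394, edgeR adjusted p = 0.132), and Hoxa10 at 0.429 ± 0.120 and 0.191 ± 0.0608 CPM (1.14, SE 0.438, edgeR adjusted p = 0.349). None of the 3 passed with edgeR, and DESeq2 called 2 of the 32, against 268 of all genes. No share over all genes was computed for DESeq2, so its counts for lists here have no background to be read against. At an unadjusted p under 0.05 there were 5 of 32, against 10% of all genes. The endothelial list moved the same way, summing to 120 to 146 CPM in P2WT and 77.1 to 94.4 CPM in P2H2WT. In it, 10 of 10 genes were higher in P2WT, against 6797 of 14080 genes tested (median log2 fold change 1.162, against -0.006 over all genes). Of these, edgeR called 1, Ptprb (edgeR adjusted p = 0.0468), against 0.121% of all genes called higher. DESeq2 called 6, and 8 had an unadjusted edgeR p under 0.05, against 10% of all genes. The defining markers of the list, Cdh5, Kdr and Emcn, were detected in every library. The stroma list summed to 451 to 1240 CPM in P2WT and 173 to 293 CPM in P2H2WT. Its genes were higher in P2WT in 7 of 7 cases (median log2 fold change 1.104), against the same 6797 of 14080. Of the 7, 0 were called by edgeR and 5 by DESeq2, and 7 had an unadjusted edgeR p under 0.05, against 10% of all genes. The part of both lists in the values of Tek and Esam was not tested. Cd34, which endothelium also carries, had a log2 fold change of -0.12 (95% interval -0.46 to 0.22) between the same groups.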

How the data were processed

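RNA sequencing counts of 16 mouse libraries (4 groups of 4, by title) were used. The authors deposited raw counts per Ensembl gene, 1 table per line. HTSeq and mm10 are named in the submitters' processing notes, while aligner, annotation release and strand setting are not given in the sources used here. Symbols matched 49326 of 49585 identifiers, and exon lengths came from GENCODE M21 on GRCm38. Promoters were those of RefSeq (GRCm38.p6).

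Genes were filtered with filterByExpr, scaled by TMM and tested with edgeR 4.0.16 (glmQLFit robust, glmQLFTest, Benjamini-Hochberg over all genes, threshold 0.05) in R 4.3.3. Each line was fitted on its 8 libraries, and the other contrasts on all 16. DESeq2 1.42.0, RLE and upper-quartile scaling, other filters, the m or f title suffix as a covariate and left-out libraries were alternatives. Marker lists were scored as mean log2 CPM (prior count 2), with permutation p from scipy 1.17.1 and numpy 2.4.6.

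The 10 genes and all lists were chosen with earlier results of these data known. Named genes were the 10, the 3 smallest p values per comparison among 32 other progenitor genes, marker genes, and the 3 genes most like each of the 10 with a mean of at least 1 CPM. Some of the genes this rule names are not reported here. The edgeR procedure was tested on simulated data.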

Additional observations from a re-analysis of the deposited data

How the results depend on the processing

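The count of the 10 genes called stayed at 0 in all 5 comparisons under every alternative, and the smallest adjusted p of any of them was 0.56 under other settings and 0.406 with a library left out. Of 315 log2 fold changes under other settings 310 kept their sign, and of 640 with a library left out 583 did. With the suffix covariate the sign turned for Hoxa9 (-0.042) in P2KO against P2WT, for Gata2 (0.074) and Lmo2 (0.0093) in P2H2KO against P2H2WT, and for Gata2 (-0.1) and Meis1 (0.0016) in the difference of the effects. The cause was not tested.

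With single libraries left out, these log2 fold changes, none called, crossed 0. In P2KO against P2WT the ranges were -0.094 to 0.059 for Gata2, -0.037 to 0.22 for Meis1, -0.15 to 0.24 for Hoxa9, -0.093 to 0.44 for Mecom, -0.0014 to 0.07 for Erg28, -0.3 to 0.088 for Sox4 and -0.17 to 0.051 for Vav1. In P2H2KO against P2H2WT they were -0.3 to 0.092 for Gata2 and -0.15 to 0.06 for Lmo2. In the difference of the effects they were -0.14 to 0.24 for Gata2, -0.21 to 0.037 for Meis1 and -0.016 to 0.44 for Sox4. Averaged over the lines they were -0.079 to 0.067 for Cd34, -0.17 to 0.017 for Gata2, -0.029 to 0.012 for Erg28 and -0.049 to 0.069 for Vav1. In P2WT against P2H2WT they were -0.26 to 0.064 for Cd34, -0.12 to 0.029 for Meis1, -0.41 to 0.043 for Hoxa9, -0.14 to 0.26 for Sox4 and -0.039 to 0.042 for Vav1.

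Counts over all genes differed between settings. The edgeR fit of all 16 libraries called 10 in P2KO against P2WT. DESeq2 called 24 in P2KO against P2WT, 39 in P2H2KO against P2H2WT, 63 averaged over the lines and 268 between the controls. The count between the controls was 9 without a filter and 124 with the suffix covariate. With a library left out the counts were 4 to 6, 6 to 9 (6 without P2H2WT replicate 13), 15 to 30 (15 without P2WT replicate 4) and 0 to 182 (0 without P2WT replicate 3, 4 or 7 or P2H2WT replicate 13, and 182 without P2KO replicate 9). No paired analysis was possible because the groups share no replicate number.

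Alternatives for the relations with marker lists (unscaled CPM, a prior count of 0.5 and each library left out, 18 in all) were chosen after seeing the data. The calls of Lmo2 with the erythroid list, Sox4 with the B progenitor list and Cd34 with the monocyte list held in all 18. So did those of Vav1 with the neutrophil, erythroid and cell cycle lists, and of Gata2 with the mast cell and basophil list. For Gata2, libraries were left out only singly, so the 18 could not test the gap between 11 and 5 libraries. The others held in 12 to 17 of 18, and with unscaled CPM those of Cd34 with the cell cycle list, Gata2 with the promyelocyte list and Vav1 with the monocyte list were lost. Mecom, at 4 to 19 counts, is limited by depth.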

Other observations

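The 4 libraries with the highest Cd34, P2H2WT replicate 16 (42.4 CPM), P2H2KO replicate 15 (42.2 CPM), and P2H2KO replicate 17 and P2WT replicate 7 (36.1 CPM each), all carried the suffix f in their titles, which 6 of the 16 libraries do. The other 2 libraries with the suffix f, P2KO replicate 9 and P2WT replicate 10, were at 24.3 and 28.3 CPM, within the range of 23.7 to 31.5 CPM of the 10 libraries with the suffix m. The suffixes were unevenly spread, with 3 m libraries in P2KO and P2H2WT and 2 in P2WT and P2H2KO. This split was chosen after the values were seen and was not tested.

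P2KO replicate 9 had the highest Tek (8.44 CPM) and Esam (6.14 CPM) of the 16 libraries, and its endothelial list summed to 245 CPM against at most 146 CPM in the P2WT libraries. Among the 10 genes it held the lowest Vav1 (146 CPM) and 1 of the 3 highest Sox4 values (79.6 CPM).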
